A study of Mus musculus with 20 samples.

Results

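The miRNAs of striated muscle are the miR-1a, miR-133, miR-206, miR-208 and miR-499 families, and they were followed here through skin, hyperplastic skin and skin tumours. Members were chosen by name: every arm and copy of mmu-miR-1a, mmu-miR-133a, mmu-miR-133b, mmu-miR-206, mmu-miR-208a, mmu-miR-208b and mmu-miR-499, which gave 15 of the 1137 mature miRNAs in the table. The samples were skin biopsies of FVB/N mice, an inbred strain, with 5 libraries in each of 4 groups. Healthy skin (libraries 2, 3, 4, 5 and 7) had received acetone. Hyperplastic skin (1, 2, 5, 7 and 8), papillomas (1, 3, 4, 5 and 6) and cutaneous squamous cell carcinomas, or cSCC (1, 2, 3, 4 and 6), came from skin given DMBA and PMA. DMBA is a mutagen that starts tumours, and PMA is a phorbol ester that promotes their growth. The labels give neither age nor sex, and they do not say whether the libraries came from separate mice, so p-values measure only the spread between these samples.

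Striated muscle cells switch on these miRNAs through muscle transcription factors, and in muscle they are among the most abundant small RNAs. miR-1 and miR-133 are made from shared primary transcripts and act on differentiation and growth of muscle, miR-206 is a skeletal muscle relative of miR-1, and miR-208 and miR-499 lie within myosin heavy chain genes. Mouse trunk skin rests on a thin sheet of striated muscle, the panniculus carnosus, and the epidermis itself holds none. The labels do not say from which site the biopsies came or how deep they reached. In such bulk RNA, fewer cells of a type and less RNA per cell cannot be told apart.

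The mature sequences below, from RefSeq for the build GRCm38.p6, show how the members whose results are described relate to each other. Of the 15 members 11 had a mature sequence in that table. The capitals mark the seed, bases 2 to 8 counted from the 5′ end, which pairs with target mRNAs. The 3p arms of miR-206 and miR-133b come from 1 locus and are shown first. The 5p arms of miR-1a-1 and miR-206 follow, whose seeds differ by the single substitution A5G. The last group, miR-499-5p with the 3p arms of miR-208a and miR-208b, is shown for its related seeds: both miR-208 arms share 1 seed, which differs from that of miR-499-5p by U8G.
miR-206-3p: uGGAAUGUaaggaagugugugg
miR-133b-3p: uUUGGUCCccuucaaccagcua
miR-1a-1-5p: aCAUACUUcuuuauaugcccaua
miR-206-5p: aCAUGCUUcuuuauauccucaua
miR-499-5p: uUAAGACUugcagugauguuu
miR-208a-3p: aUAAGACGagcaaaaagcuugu
miR-208b-3p: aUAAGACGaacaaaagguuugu

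In the deposited table, on the build mm9, mmu-miR-1a-3p was placed at chr2:180123800-180123823 and mmu-miR-133a-3p at chr2:180133141-180133164, 9341 bp apart. mmu-miR-206-3p was at chr1:20669135-20669158 and mmu-miR-133b-3p at chr1:20672914-20672937, 3779 bp apart. In the GENCODE M21 annotation of GRCm38 both lay on the same strand within an exon of the long noncoding RNA Gm28653. mmu-miR-499-5p was at chr2:155448628-155448650, within an intron of Myh7b. miR-208a lay in an intron of Myh6 and miR-208b in an intron of Myh7, the genes of cardiac myosin heavy chains. The mouse prefix mmu is left out of the names from here on.

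Libraries held from 1060615 to 6904298 counts of mature miRNAs. They held 1060615 to 2370313 in papilloma and 1614803 to 2903657 in cSCC, against 2884177 to 6904298 in the other 2 groups, so that every tumour library except cSCC 3 was shallower than all skin libraries. Levels are in CPM, read counts relative to the library's total after scaling by TMM, which takes a typical miRNA as equal between libraries. The skin label was checked with miR-203 and miR-205, miRNAs of keratinocytes. Their 4 arms summed to 146808 to 241120 CPM in healthy skin and to 71302 to 138030 CPM in cSCC. Papilloma 1 and 6 stood apart from the other papillomas in the makeup of the striated muscle miRNAs, so results for papilloma are also given without them.

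The striated muscle miRNAs made up a few percent of all miRNA counts in skin and well under that in tumours. The 15 members took 6.61% of mature miRNA counts in healthy library 2, 4.20% in 3, 3.15% in 4, 4.23% in 5 and 1.84% in 7. In hyperplastic skin they took 3.77% in library 1, 2.25% in 2, 1.76% in 5, 4.25% in 7 and 3.53% in 8. In papilloma the shares were 0.356% in library 1, 1.12% in 3, 0.845% in 4, 0.599% in 5 and 0.376% in 6. The cSCC libraries ran from 0.217% in library 6 to 0.366% in library 1. Every papilloma and cSCC share lay below every share of healthy and hyperplastic skin, while healthy and hyperplastic skin overlapped. The group means were 4.01% ± 1.75, 3.11% ± 1.06, 0.658% ± 0.324 and 0.295% ± 0.066 (SD, n = 5 each) for the healthy, hyperplastic, papilloma and cSCC libraries. These shares are of raw counts and need no scaling factor. The 2 members miR-1a-3p and miR-133a-3p supplied 84.7% of the members' counts in healthy skin and 86.6% in hyperplastic skin. Their part was 81.0% for papillomas and 76.7% for cSCC.

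**Figure D1:**
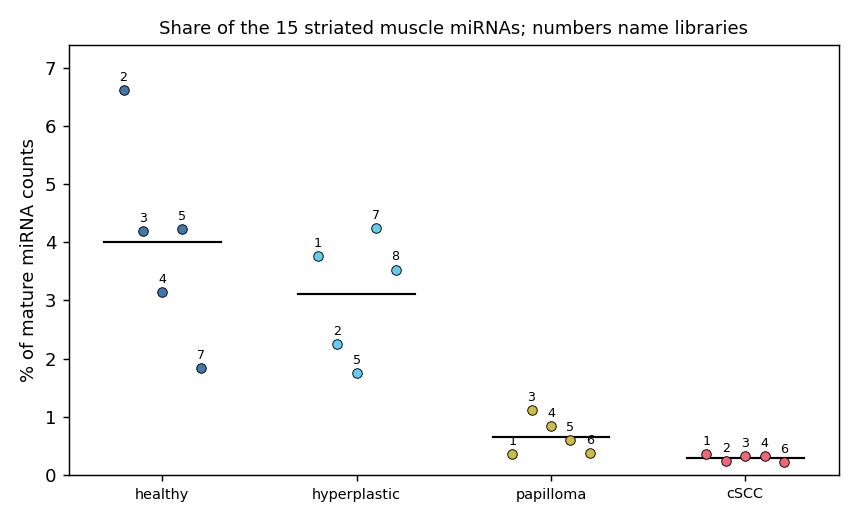
Share of mature miRNA counts taken by the 15 striated muscle miRNAs, in percent, for each of the 20 libraries (points, with library numbers) and the group means (bars). Papilloma (0.356% to 1.12%) and cSCC (0.217% to 0.366%) lie below all 10 libraries of healthy and hyperplastic skin (1.76% to 6.61%).

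Of the 15 members 10 had enough counts to be tested, and 7 of those fell in both tumour types. In edgeR's quasi-likelihood test, with Benjamini-Hochberg adjustment over all 850 tested miRNAs and a threshold of 0.05, 7 of 10 members were lower and 2 were higher in papilloma than in healthy skin. Of all 850 miRNAs, 20.7% were called lower and 24% higher in that comparison. In cSCC against healthy skin the count was again 7 lower and 2 higher, beside 21.3% and 26.2% of all tested. With factors taken from the abundant miRNAs of at least 50 CPM, those shares of all miRNAs became 8.59% and 50.1% in papilloma and 12% and 53.1% in cSCC. The median log2 fold change over the tested members was -3.08 in papilloma and -3.88 in cSCC, against 0.40 and 0.35 over all 850. Both comparisons use the same healthy libraries. The members are not independent of each other either: arms of 1 gene, miRNAs of shared transcripts and near-identical sequences are among them. Without papilloma 1 and 6 the papilloma counts were again 7 lower and 2 higher, beside 18.6% lower and 9.52% higher of the 903 miRNAs tested in that fit. Leaving out 1 library moved the share of all miRNAs called higher in papilloma to 12.2% without papilloma 4 and 11.525% without papilloma 6. The 2 that were called higher, the arms of miR-499, passed the filter on low counts through the tumour libraries, so their part in these counts is no independent support.

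miR-1a-3p, which restrains growth of muscle cells, was the most abundant member. Its level in healthy skin was 47476, 30603, 20078, 36289 and 11938 CPM in libraries 2, 3, 4, 5 and 7. In hyperplastic skin it was 22635, 12868, 12044, 28795 and 19250 CPM in libraries 1, 2, 5, 7 and 8. In papilloma it was 987, 6115, 3878, 3185 and 551 CPM in libraries 1, 3, 4, 5 and 6. In cSCC it was 2091, 1033, 2093, 2611 and 810 CPM in libraries 1, 2, 3, 4 and 6. No tumour library reached the lowest healthy or hyperplastic library, and the papillomas spanned the whole range of cSCC. The mean was 29277 ± 13851 CPM over healthy, 19118 ± 6985 over hyperplastic, 2943 ± 2266 over papilloma and 1728 ± 770 over cSCC libraries (SD, n = 5 each). miR-1a-3p fell by a log2 fold change of -3.31 ± 0.51 (SE) in papilloma (edgeR, adjusted p = 4.10e-05) and of -4.08 ± 0.53 in cSCC (adjusted p = 9.46e-07). Without papilloma 1 and 6 the first was -2.97 (edgeR, adjusted p = 0.000190).

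miR-133a-3p, which is known to restrain smooth muscle genes and cell division in heart muscle, fell in both tumour types. Healthy libraries 2, 3, 4, 5 and 7 had 24679, 12592, 6494, 18957 and 6472 CPM. Hyperplastic libraries 1, 2, 5, 7 and 8 had 7566, 4910, 3950, 18380 and 16969 CPM. Libraries 7 and 8 of hyperplastic skin thus lay among the high healthy libraries, and libraries 2 and 5 were below all healthy ones. Papilloma libraries 1, 3, 4, 5 and 6 had 1655, 2286, 1431, 1013 and 1068 CPM, and cSCC libraries 1, 2, 3, 4 and 6 had 727, 402, 652, 729 and 396 CPM. The 3 levels, skin of either kind, papilloma and cSCC, did not overlap. The log2 fold change against healthy skin was -3.21 ± 0.44 (SE) in papilloma (edgeR, adjusted p = 1.55e-05) and -4.57 ± 0.47 in cSCC (adjusted p = 4.29e-08).

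**Figure D2:**
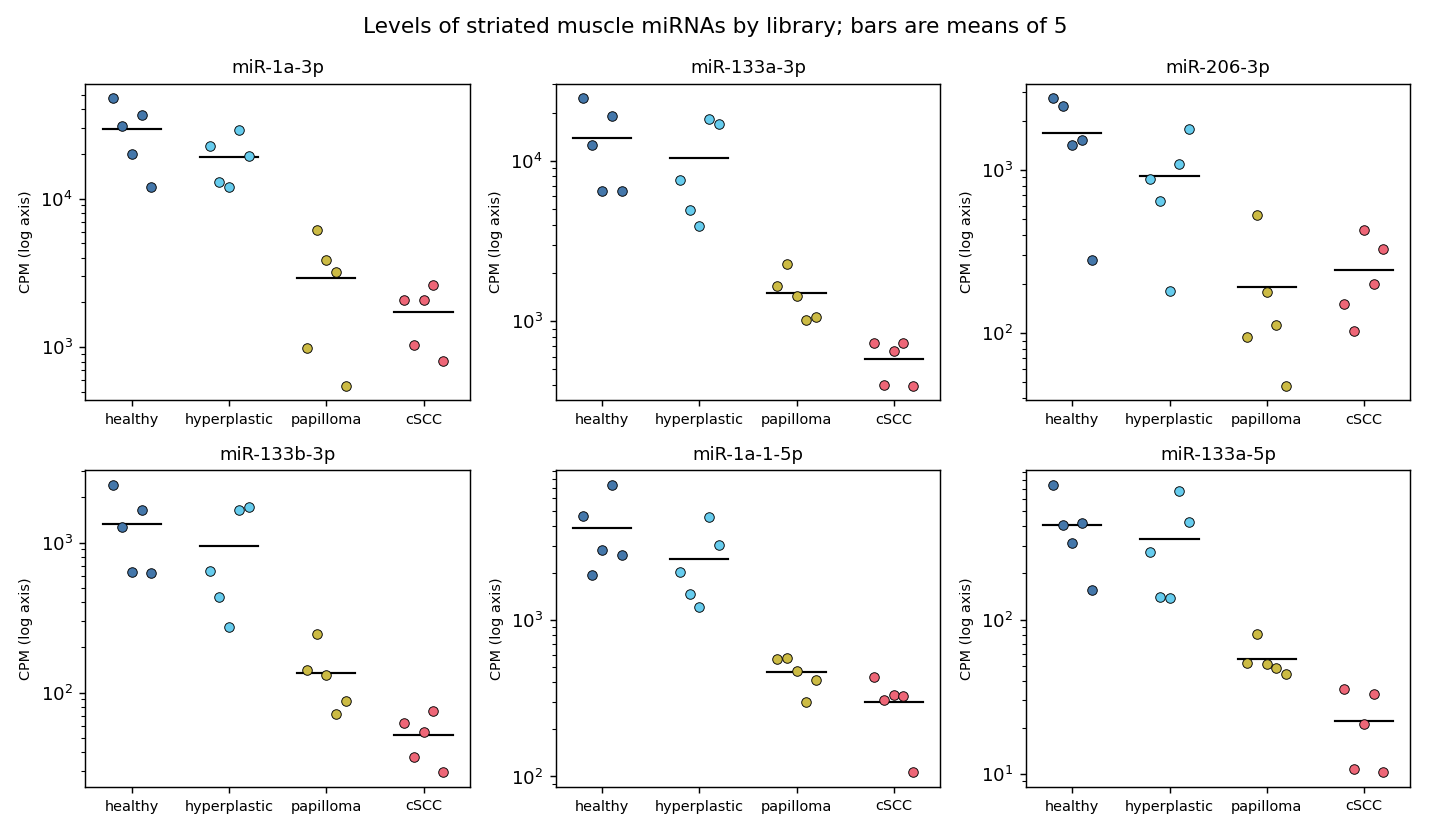
Levels of 6 striated muscle miRNAs in CPM on log axes, by library (points) and group mean (bars), for 5 libraries in each of 4 groups. For miR-1a-3p and miR-133a-3p all tumour libraries lie below all libraries of healthy and hyperplastic skin, whereas miR-206-3p reaches 529 CPM in 1 papilloma and as little as 182 CPM in 1 hyperplastic library.

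Of the other members, miR-1a-1-5p, miR-1a-2-5p, miR-133a-5p and miR-133b-3p fell in both tumour types. miR-1a-1-5p, the other arm of the chromosome 2 copy of miR-1a, went from 3870 ± 2187 CPM in healthy skin to 464 ± 113 in papilloma and 302 ± 120 in cSCC. miR-1a-2-5p comes from the copy on chromosome 18 and had 192 ± 55.4, 22.2 ± 6.79 and 11.3 ± 5.50 CPM in the same order (SD, n = 5 each). Their log2 fold changes were -3.06 ± 0.41 and -3.11 ± 0.40 (SE) in papilloma and -3.68 ± 0.42 and -4.07 ± 0.42 in cSCC (edgeR, adjusted p from 4.29e-08 to 1.55e-05). The arms of both gene copies were thus lower in tumours, and neither overlapped with healthy skin.

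miR-133a-5p stood at 408 ± 216 CPM in healthy skin, 55.6 ± 14.4 in papilloma and 22.2 ± 12 in cSCC. Its log2 fold changes were -2.87 ± 0.46 (SE) and -4.19 ± 0.49 (edgeR, adjusted p = 5.49e-05 and 1.96e-07). miR-133b-3p stood at 1322 ± 754, 135 ± 67.6 and 52.0 ± 18.8 CPM in the same order, with log2 fold changes of -3.29 ± 0.49 and -4.67 ± 0.53 (adjusted p = 3.80e-05 and 1.46e-07). miR-133b-3p and miR-133a-3p are near-identical in sequence, and how the authors assigned shared reads is not given in the sources used here, so the 2 may rest partly on the same reads. Counts of miR-133b-3p were 6.88% to 10.7% of those of miR-133a-3p in all 20 libraries.

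miR-206-3p, which is made mainly in skeletal muscle and rises in regenerating fibres, fell as well but with overlap between groups. Healthy libraries 2, 3, 4, 5 and 7 had 2755, 2473, 1418, 1518 and 281 CPM. Papilloma libraries 1, 3, 4, 5 and 6 had 95.2, 529, 178, 111 and 47.6 CPM. The cSCC libraries 1, 2, 3, 4 and 6 had 151, 103, 429, 200 and 326 CPM. Papilloma 3 and cSCC 3 and 6 lay above healthy 7, the lowest healthy library, and below the other 4. The log2 fold change was -3.13 ± 0.63 (SE) in papilloma (edgeR, adjusted p = 0.000456) and -2.80 ± 0.62 in cSCC (adjusted p = 0.000666). Its other arm, miR-206-5p, had 6.56 to 11.1 CPM in healthy skin, 3.14 to 8.57 in papilloma and 4.03 to 8.31 in cSCC. That arm did not pass: the log2 fold changes were -0.71 ± 0.36 and -0.68 ± 0.36 (edgeR, adjusted p = 0.105 and 0.111), and the second was 0.03 with factors taken from abundant miRNAs.

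Of the 7 members that fell, 6 had no library in common with healthy skin in either comparison, where 14.7% of all tested miRNAs were so separated in papilloma and 16.7% in cSCC. The exception in both was miR-206-3p. The 2 called higher, the miR-499 arms, were separated too, beside 12.9% and 12.8% of all tested. They passed the filter on low counts through the tumour libraries, so their separation is no independent support. For miR-499-3p it holds in cSCC after scaling only, by 2.27 CPM in cSCC 3 against 2.23 CPM in healthy 5. With factors from the abundant miRNAs the fold changes of all miRNAs moved up by a median of 0.66 (log2) in papilloma and 0.71 in cSCC. The 7 members were still called lower, with miR-133a-3p at -2.57 and -3.86 and miR-1a-3p at -2.70 and -3.40.

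**Figure D3:**
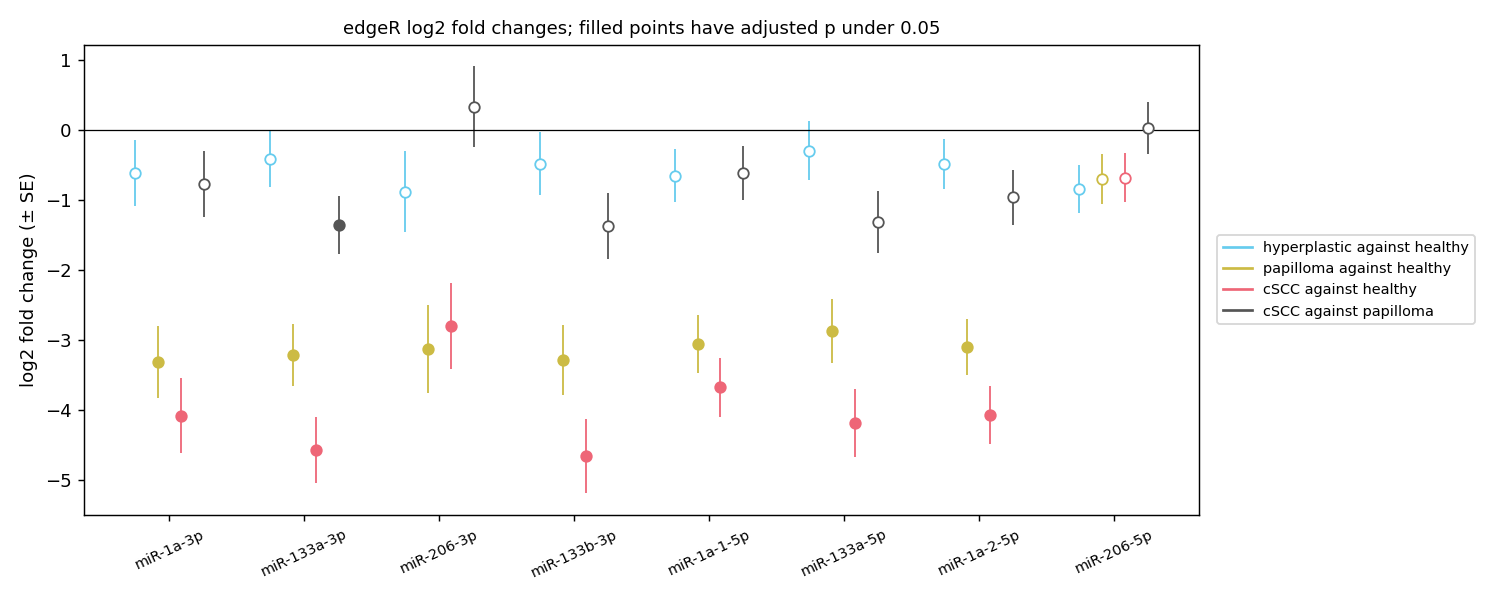
Fold changes of 8 striated muscle miRNAs on the log2 scale (points, with SE as bars) in 4 comparisons, with filled points for an adjusted p under 0.05 in edgeR. Papilloma and cSCC lie from -2.80 to -4.67 against healthy skin for 7 miRNAs, hyperplastic skin has no filled point, and miR-133a-3p alone is filled in cSCC against papilloma.

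Hyperplastic skin carries the same DMBA and PMA treatment as the tumours, and its comparison with healthy skin shows the treated state without a tumour label. None of the 10 tested members passed (edgeR, and DESeq2 as an alternative, 0 of 10), and 0% of the 850 miRNAs did, although 75 of them and 1 member, miR-206-5p, had an unadjusted p under 0.05. The estimates were -0.61 ± 0.47 (SE) for miR-1a-3p, -0.42 ± 0.40 for miR-133a-3p, -0.65 ± 0.38 for miR-1a-1-5p and -0.88 ± 0.58 for miR-206-3p on the log2 scale. Their adjusted p in edgeR lay between 0.629 and 0.760. For miR-133b-3p, miR-133a-5p and miR-1a-2-5p the estimates were -0.49, -0.30 and -0.49. The median over the members was -0.49, against -0.0076 over all tested miRNAs. No member was separated from healthy skin in either direction, beside 0.353% of all tested miRNAs that lay lower and 0.706% that lay higher. A p above the threshold does not show that the levels were equal, since healthy libraries alone spanned 6472 to 24679 CPM for miR-133a-3p.

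Against hyperplastic skin, 7 of 10 tested members were lower and 2 higher in papilloma, where 17.1% and 21.3% of all tested were called. In cSCC against hyperplastic skin the counts were also 7 and 2, beside 20.5% and 24.5%. With factors from the abundant miRNAs these shares became 5.65% and 37.6% for papilloma and 9.65% and 43.4% for cSCC. Without papilloma 1 and 6 the papilloma counts were 7 and 2, beside 15.4% and 6.53% of all tested. The share of all miRNAs called lower in papilloma was 9.73% without hyperplastic 7, and that called higher was 12.7% without papilloma 6. No library overlapped with hyperplastic skin for 6 of the lower and both of the higher members, where 12.2% and 9.65% of all tested were so separated in papilloma and 15.6% and 12.7% in cSCC. For miR-499-3p the separation of cSCC holds after scaling only, by 2.27 CPM in cSCC 3 against 2.23 CPM in healthy 5 and 1.84 CPM in hyperplastic 5. The higher members, both arms of miR-499, passed the filter on low counts through the tumour libraries, so they are no independent support here either. miR-133a-3p fell by a log2 fold change of -2.80 ± 0.43 (SE) in papilloma (edgeR, adjusted p = 0.000166) and of -4.16 ± 0.46 in cSCC (adjusted p = 2.22e-07). miR-1a-3p had -2.70 ± 0.50 and -3.47 ± 0.52 (edgeR, adjusted p = 0.000524 and 8.50e-06). The smallest falls were those of miR-206-3p, with -2.25 ± 0.61 in papilloma (adjusted p = 0.00649) and -1.92 ± 0.60 in cSCC (adjusted p = 0.0113). The last call was lost without hyperplastic 8 (log2 fold change -1.44, edgeR, adjusted p = 0.0553). It was also lost with factors from abundant miRNAs (-1.27, adjusted p = 0.0665).

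Between the 2 kinds of tumour the levels lay much closer. In cSCC against papilloma 1 of 10 tested members was lower and 0 were higher, where 4.71% and 6.82% of all tested miRNAs were called. miR-133a-3p was that member, with 1491 ± 517 CPM in papilloma and 581 ± 169 in cSCC and a log2 fold change of -1.36 ± 0.41 (SE, edgeR, adjusted p = 0.0314). The call did not survive the loss of any 1 library: the 10 fits without 1 papilloma or cSCC gave -1.38 to -1.17 with an adjusted p of 0.0626 to 0.122. Over all tested miRNAs the share called lower was 1.55% to 2.94% in these 10 fits. Together with miR-133a-5p (44.8 to 80.8 CPM against 10.3 to 35.8 CPM) it was 1 of 2 members without overlap, beside 4.12% of all tested that lay lower and 1.88% that lay higher. The estimate for miR-133a-5p was -1.32 ± 0.45 (adjusted p = 0.0558). miR-133b-3p had -1.38 ± 0.47 (adjusted p = 0.0568), and miR-1a-2-5p -0.97 ± 0.39 (adjusted p = 0.126). The estimates for miR-1a-3p and miR-1a-1-5p were -0.77 ± 0.47 and -0.62 ± 0.38 (adjusted p = 0.386 and 0.387). miR-206-3p was at 0.33 ± 0.58 (adjusted p = 0.81) and at -0.12 without papilloma 1 and 6. Without those 2 libraries miR-1a-3p passed in place of miR-133a-3p (-1.29, edgeR, adjusted p = 0.0481, against -1.38, adjusted p = 0.0803).

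The members did not keep 1 proportion to each other in every library. miR-1a-3p and miR-133a-3p are made from the same primary transcripts, and within a library their ratio of counts does not depend on scaling. It was 1.92, 2.43, 3.09, 1.91 and 1.84 in healthy libraries 2, 3, 4, 5 and 7, and 2.99, 2.62, 3.05, 1.57 and 1.13 in hyperplastic libraries 1, 2, 5, 7 and 8. In cSCC 1, 2, 3, 4 and 6 it was 2.88, 2.57, 3.21, 3.58 and 2.05. In papilloma 3, 4 and 5 it was 2.67, 2.71 and 3.15, but it was 0.596 in papilloma 1 and 0.516 in papilloma 6, the only 2 libraries in which miR-133a-3p was the more abundant. The same 2 papillomas had the highest ratios of miR-1a-1-5p to miR-1a-3p. Counts of miR-1a-1-5p were 56.9% and 74.9% of those of miR-1a-3p, against 9.34% to 12.3% in the other 3 papillomas and 6.34% to 29.8% in the other groups. The name miR-1a-3p carries no copy number, so its counts may come from both gene copies, and the ratio is not that of a single hairpin. The levels of miR-1a-3p were low there while those of miR-133a-3p (1655 and 1068 CPM) and miR-1a-1-5p (562 and 412 CPM) lay among the other papillomas. Papilloma 6 was the shallowest library and papilloma 1 the deepest of its group, and the part of depth in this was not tested.

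No difference between groups in the proportion of miR-206-3p to miR-133a-3p passed after adjustment. Counts of miR-206-3p were 11.2%, 19.6%, 21.8%, 8.01% and 4.35% of those of miR-133a-3p in healthy libraries 2, 3, 4, 5 and 7. In hyperplastic libraries 1, 2, 5, 7 and 8 they were 11.6%, 13.1%, 4.61%, 5.88% and 10.6%. Papilloma 1, 3, 4, 5 and 6 had 5.76%, 23.2%, 12.5%, 11.03% and 4.49%, and cSCC 1, 2, 3, 4 and 6 had 20.8%, 25.7%, 65.8%, 27.5% and 82.4%. All 5 cSCC libraries lay above all hyperplastic ones, and cSCC overlapped narrowly with the other 2 groups. The mean log2 ratio was higher in cSCC by 1.78 than in healthy skin, by 2.17 than in hyperplastic skin and by 1.98 than in papilloma (exact two-sided permutation tests over 5 against 5 libraries, p = 0.0159, 0.00794 and 0.0159). The smallest p that such a test can give is 0.00794. After adjustment over the 24 ratio tests made between members each had an adjusted p of 0.127, and none of the 24 passed (3 had an unadjusted p under 0.05). With group medians the differences were 1.30, 1.38 and 1.32 (exact permutation tests, adjusted p = 0.381 each). Without papilloma 1 and 6 the difference from papilloma was 1.37 (adjusted p = 0.514, exact permutation test). The ratio of miR-133a-5p to miR-133a-3p was 2.21% to 4.95% over all 20 libraries.

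**Figure D4:**
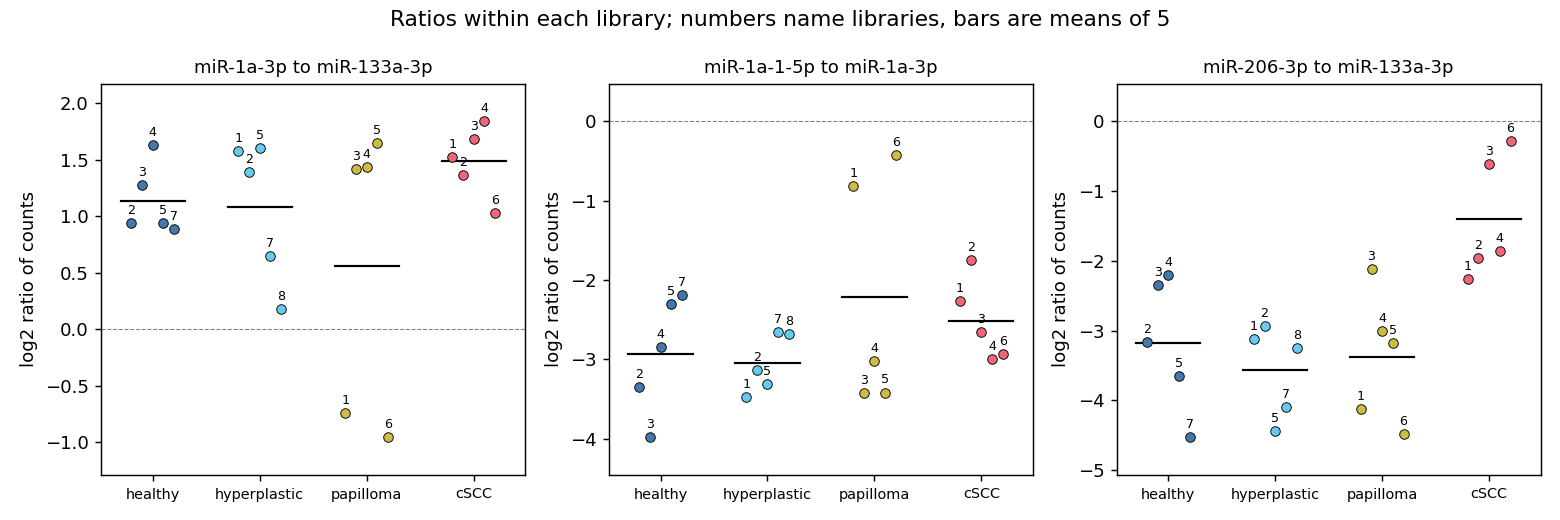
Log2 ratios of raw counts within each library for 3 pairs of striated muscle miRNAs (points with library numbers, bars for group means, dashed line at equal counts). Papilloma 1 and 6 stand apart in the first 2 pairs, and for miR-206-3p to miR-133a-3p the cSCC libraries, at 20.8% to 82.4%, lie above all hyperplastic ones and overlap with healthy skin and papilloma.

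The miRNAs whose genes sit within myosin heavy chain genes were near the limit of detection in every group. miR-499-5p, found in heart and slow skeletal muscle fibres, had 2, 1, 3, 2 and 0 reads in healthy libraries 2, 3, 4, 5 and 7, and 4, 2, 2, 3 and 1 reads in hyperplastic libraries 1, 2, 5, 7 and 8. It had 9, 11, 10, 13 and 8 reads in papilloma 1, 3, 4, 5 and 6, and 14, 8, 8, 10 and 11 in cSCC 1, 2, 3, 4 and 6. A count of 0 allows up to 3 reads by counting error alone. The raw counts of miR-499-5p in every tumour library exceeded those of all healthy and hyperplastic libraries. Among the scarce miRNAs described below, 2.2% lay wholly above healthy skin in papilloma and 2.54% in cSCC. Against hyperplastic skin the share was 1.02% in each tumour type. miR-499-5p passed the filter on low counts through the tumour libraries, so this separation is no independent support. Every tumour library except cSCC 3 was shallower than all skin libraries, and the part of depth in the separation was not tested.

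miR-499-3p had 3, 1, 1, 7 and 0 reads in the healthy libraries and 4, 7, 7, 3 and 2 in the hyperplastic ones. It had 24, 17, 17, 8 and 9 reads in papilloma and 21, 25, 6, 29 and 15 in cSCC. All papilloma counts lay above all skin counts, and cSCC 3, with 6 reads, lay within the range of skin. Both arms were called higher against healthy skin in edgeR, miR-499-5p with an adjusted p = 7.12e-05 in papilloma and 4.34e-05 in cSCC, and miR-499-3p with 0.000334 and 7.25e-05. Both arms passed the filter on low counts through the tumour libraries, so these calls are no independent support. No fold is given at such counts. There were 590 such scarce miRNAs, whose counts averaged no more than 20. Of these 2.2% had raw counts in papilloma that all lay above those in healthy skin, and 2.54% had this in cSCC, while 1.02% had it against hyperplastic skin in each tumour type. Of the 303 scarce miRNAs tested, 32% were called higher in papilloma and 27.1% in cSCC than in healthy skin, and 31.7% and 28.1% than in hyperplastic skin. In sum the scarce miRNAs had 3698 ± 350 counts a library in healthy skin and 4732 ± 1370 in hyperplastic skin. The sums were 4649 ± 530 for papilloma and 4637 ± 913 for cSCC (SD, n = 5 each). In the order healthy, hyperplastic, papilloma and cSCC this was 0.0948%, 0.111%, 0.289% and 0.202% of mature counts. The part of this in the calls for miR-499 was not tested.

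The other 5 members were too scarce to test. miR-208a, a heart muscle miRNA, had 0 to 7 reads a library in its 3p arm and 0 to 5 in its 5p arm over all 20 libraries. miR-208b, found in heart and slow skeletal muscle, had 0 to 9 reads in each of its arms. miR-208b-3p had 4, 2, 3, 1 and 9 reads in the healthy libraries, 2, 3, 8, 2 and 1 in the hyperplastic, 9, 7, 8, 4 and 5 in papilloma and 6, 7, 9, 4 and 0 in cSCC, with overlap between all groups. miR-133b-5p had 0 to 15 reads.

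**Figure D5:**
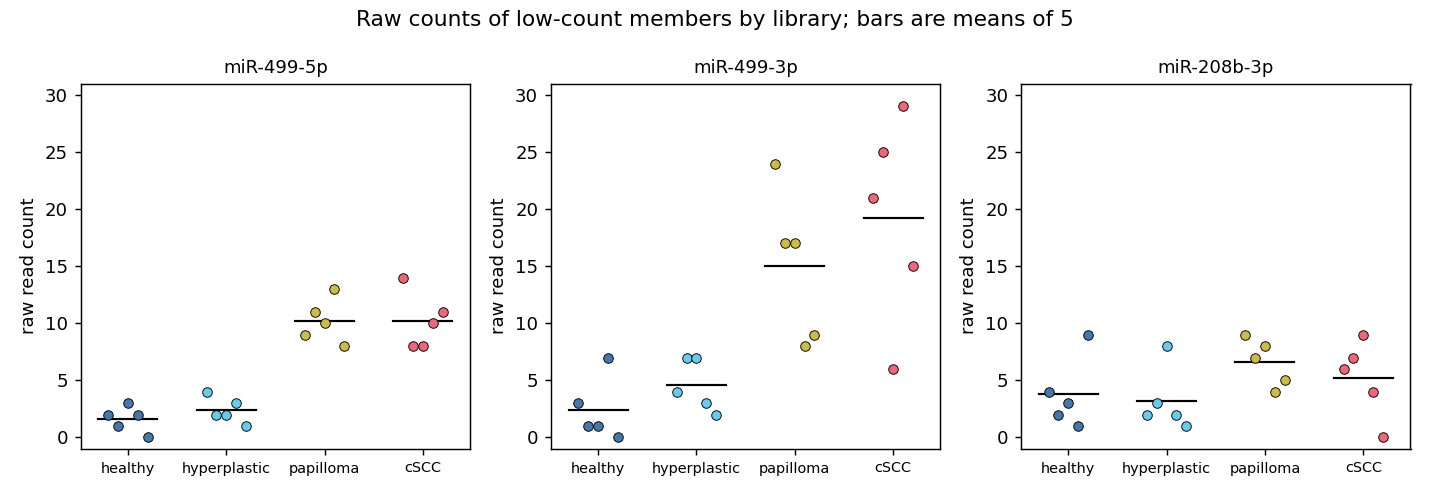
Raw read counts of 3 scarce striated muscle miRNAs by library (points) and group mean (bars), in healthy skin, hyperplastic skin, papilloma and cSCC. miR-499-5p has 0 to 4 reads in skin and 8 to 14 in tumours, while miR-208b-3p stays at 0 to 9 reads in all 4 groups.

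The miRNAs enriched in striated muscle without being specific to it fell too. This list, of arms of miR-378, miR-22, miR-486 and miR-1b, has 8 tested of 9 in the table. In papilloma against healthy skin 7 of 8 were lower and in cSCC all 8, beside 20.7% and 21.3% of all tested miRNAs, with median log2 fold changes of -1.44 and -1.87, and 0 of 8 passed in hyperplastic skin. miR-378-3p, made from an intron of the metabolic coactivator gene Ppargc1b, went from 11409 ± 3140 CPM in healthy skin to 4188 ± 1271 in papilloma and 2120 ± 227 in cSCC. Its log2 fold changes were -1.45 ± 0.27 (SE) and -2.43 ± 0.28 (edgeR, adjusted p = 0.000250 and 1.87e-07), and it was also lower in cSCC than in papilloma (-0.98 ± 0.27, adjusted p = 0.0168). miR-378-5p and miR-378b had -1.64 and -1.45 in papilloma and -2.19 and -2.09 in cSCC. miR-22-3p, which many tissues make, had -1.23 and -1.06, and miR-22-5p had -0.93 in papilloma and was called in cSCC as well (edgeR, adjusted p = 0.00475). miR-486-3p, shared by muscle and red blood cells and so also in the red blood cell list, had -2.10 and -1.64.

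Marker miRNAs of other cell types of skin also differed between the groups. Of all tested miRNAs, 20.7% were lower and 24% higher in papilloma, and 21.3% lower and 26.2% higher in cSCC, than in healthy skin. All 4 arms of miR-143 and miR-145, markers of smooth muscle, were lower in papilloma and in cSCC than in healthy skin (medians -1.82 and -2.04). Their summed level was 53670 to 110487 CPM in healthy and 36848 to 83556 CPM in hyperplastic skin, and it was 16240 to 26115 CPM among papillomas and 13918 to 24383 CPM among cSCC. Both miR-126 arms, of endothelial cells, were lower in both tumours, and so were 4 of 6 arms of miR-199 and miR-214, of fibroblasts and other mesenchyme. Of the 4 arms of the keratinocyte miRNAs miR-203 and miR-205, 0 passed in papilloma and 3 were lower in cSCC. Leukocyte markers, arms of miR-142, miR-150, miR-155 and miR-223, summed to 18609 to 35878 CPM in healthy skin, 14935 to 60627 in papilloma and 47655 to 109562 in cSCC. Most of the cSCC sum, with a mean of 73312 CPM, was miR-223-3p alone, with a mean of 69582 CPM. Of 7 tested, 2 were lower in papilloma, and 1 was lower and 1, miR-223-3p, higher in cSCC. The median log2 fold change of the 7 in cSCC was -0.0045. Red blood cell markers (miR-144, miR-451 and miR-486) were lower in 1 and 2 of 5, and melanocyte markers (miR-204 and miR-211) in 1 and 2 of 3. The lower red blood cell markers were miR-486-3p in both tumour types and miR-486-5p in cSCC, which also stand in the list enriched in striated muscle. The most abundant one, miR-451, was not called, with log2 fold changes of 0.51 in papilloma and 0.0047 in cSCC. The part of these cell types in the results for the striated muscle miRNAs was not tested.

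Levels of miR-133a-3p were also set against the most abundant marker of each of 4 cell types within a library. These ratios were added after the data had been seen, for the 1 member called in cSCC against papilloma, and miR-1a-3p was not compared in this way. Against miR-145-5p of smooth muscle the log2 ratio was -2.37 ± 0.93 in healthy skin, -3.53 ± 0.35 for papilloma and -4.74 ± 0.48 for cSCC (SD, n = 5 each). It was thus lower by a log2 of -1.16 in papilloma (exact two-sided permutation test, p = 0.0397, adjusted p = 0.0595) and of -2.37 in cSCC (p = 0.00794, adjusted p = 0.0140). Against miR-126-5p of endothelial cells the differences were -2.02 and -3.30, against miR-199a-5p of fibroblasts -1.96 and -2.82, and against miR-205-5p of keratinocytes -2.69 and -3.68. Each of these 6 had an adjusted p of 0.0140 by the exact test, over 30 tests of which 19 passed, and no library of the tumours overlapped with healthy skin in them. The fall of miR-133a-3p against healthy skin was already known when it was chosen, so these tests are a description and no independent support. The 30 tests include the ratio of miR-1a-1-5p to miR-1a-3p, for which none passed (smallest adjusted p = 0.125, exact test, in cSCC against hyperplastic skin). Without papilloma 1 and 6 the 4 differences of papilloma from healthy skin were -1.13, -1.92, -2.004 and -2.66, the last 3 with an adjusted p of 0.0595 by the exact test, in which 3 against 5 libraries allow fewer arrangements, and 8 of 30 passed. With group medians in place of means 0 of 30 passed (smallest adjusted p = 0.0714). Between cSCC and papilloma the differences, given as a description since the member was chosen for its call there, were -1.21, -1.28, -0.86 and -0.98 in the order of the markers given, and the third was -0.60 without cSCC 6. The melanocyte marker miR-204-5p was not among the 4. Its log2 fold changes were -1.72 ± 0.31 (SE) in papilloma and -4.01 ± 0.34 in cSCC against healthy skin and -2.29 ± 0.31 in cSCC against papilloma (edgeR, adjusted p = 0.000148, 4.61e-09 and 9.39e-05). Its list did not move as 1: the median over the 3 tested melanocyte miRNAs was -0.28 in papilloma, where 1 was lower. In cSCC against healthy skin the median was -2.80, with 2 lower.

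Over the 20 libraries the levels most like that of miR-133a-3p were looked for among 293 other miRNAs of at least 50 CPM, by the SD of the log2 ratio of counts, where a small value means parallel levels. The closest were members: miR-133b-3p at 0.177, miR-133a-5p at 0.345, miR-1a-1-5p at 0.579 and miR-1a-2-5p at 0.598, where the median over the 293 was 1.78. Of miRNAs outside the families, miR-101c came first at 0.680, then miR-101a-3p at 0.711, miR-338-3p at 0.776, miR-99a-3p at 0.881 and miR-193b-3p at 0.895. miR-1a-3p itself stood at 0.771 and miR-206-3p, in place 31, at 1.196. For miR-1a-3p the closest outside the families were miR-101c (0.984), miR-338-3p (1.012), miR-101a-3p (1.03), miR-10b-5p (1.10) and miR-26a-5p (1.13). The libraries share their group differences, so that this likeness is a description, and miR-101a-3p and miR-101c are near-identical and may share reads, as may miR-133a-3p and miR-133b-3p. Within groups the SD to miR-133a-3p was 0.179 for miR-133b-3p and 0.346 for miR-133a-5p. It was 0.484 for miR-101a-3p, against 0.490 for miR-1a-1-5p, 0.631 for miR-1a-2-5p, 0.755 for miR-1a-3p and 0.871 for miR-206-3p. None of these members was thus closer there than miR-101a-3p. Other miRNAs outside the families, miR-193b-3p (0.554), miR-338-3p (0.558) and miR-101c (0.601), were also closer than miR-1a-2-5p, miR-1a-3p and miR-206-3p. The 7 miRNAs named from outside the families were all lower in cSCC than in healthy skin, beside 21.3% of all tested. Their log2 fold changes ran from -2.31 for miR-26a-5p to -3.64 for miR-101c (edgeR, adjusted p from 4.61e-09 to 1.09e-07). They were picked for levels parallel to those of falling members over these same libraries. Their fall thus follows from the choice and is no independent support.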

How the data were processed

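Small RNA libraries were made from total RNA of 20 skin biopsies and sequenced on the SOLiD instrument, per the labels' protocols. The deposited table holds whole-number read counts per small RNA feature, not normalized by the authors, on the build mm9 per the submitters' processing notes. The aligner, the counter and the handling of reads that match several miRNAs were not given in the sources used here. No feature totals under 21 counts. Groups follow the labels. Here, 850 of 1137 mature miRNAs passed filterByExpr (minimum count 10, minimum total 15) and were scaled by TMM factors (0.637 to 1.67). They were fitted in edgeR 4.0.16 (R 4.3.3, limma 3.58.1) with 1 term per group over all 20 libraries. A script tested on simulated data did the fits. SE derive from the F statistic. Log2 ratios had 0.5 counts added. Zero limits cover counting error only. Alternatives were other scalings and filters, DESeq2 1.42.0, a replicate block, all small RNA features, 2 groups only and leaving out each library. The members, lists, tests and alternatives were chosen with earlier results of these data known. Named are all members, the 5 non-members most like miR-133a-3p and miR-1a-3p, up to 6 called miRNAs of the enriched list and the most abundant marker of a cell type. Replicate numbers were not used to pair libraries in the main fit, since the labels do not say whether a shared number marks a mouse. Of 17 correlations of same-numbered libraries 7 were over 0.1 (-0.22 to 0.42). Libraries of unlike number were not compared in this way, so these values cannot decide whether the libraries were paired.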

Additional observations from a re-analysis of the deposited data

Results flagged for a closer look

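In groups of 5 libraries, a library was singled out when its gap to the nearest other, relative to the group's range, exceeded Dixon's 95% critical value. Of 76 groups looked at, 3 held such a library, and chance gives about 1 in 20. miR-206-3p stood at 529 CPM in papilloma 3, where the other papillomas had 47.6 to 178 CPM. miR-133a-5p stood at 80.8 CPM in the same library, where the others had 44.8 to 52.2 CPM. The log2 ratio of miR-133b-3p to miR-133a-3p was -3.53 in healthy 5, the lowest of the healthy libraries, in a group whose SD was 0.0863.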

How the results depend on the processing

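The 7 lower calls in papilloma and in cSCC against healthy skin were 7 or 8 in every alternative and every fit without 1 library, and those against hyperplastic skin were 7 in papilloma and 6 or 7 in cSCC. In cSCC against papilloma the count of 1 became 2 with factors from abundant miRNAs, 4 with total counts, 0 without the filter, 3 at 50 CPM on average, 3 with the 2 groups only, 0 with all small RNA features, 3 with DESeq2 and 0 in each of the 10 fits without 1 library. Of all features 4.47%, 9.06%, 1.85%, 12.3%, 4.36%, 1.71% and 5.29% were lower in these 7 settings in the order given, and 1.55% to 2.94% without 1 library. The cause was not tested. Both miR-499 arms left the table at 50 CPM, and with 2 groups only 0 arms were called, or 1 in papilloma against hyperplastic skin, where fewer miRNAs pass the filter. miR-206-5p turned to 0.030 in cSCC against healthy skin with factors from abundant miRNAs. It passed without the filter (-1.10 in papilloma, -0.97 in cSCC) and in papilloma without papilloma 3 (-0.98). miR-133a-5p turned to 0.016 in hyperplastic against healthy skin without healthy 2, and ranged from -0.86 to that value over the fits without 1 library, and miR-206-3p to -0.12 in cSCC against papilloma without papilloma 1 and 6. miR-206-3p in cSCC against hyperplastic skin was -1.27 at 50 CPM (adjusted p = 0.0877). The added ratios called went from 19 to 0 with medians and to 8 without papilloma 1 and 6, where 3 papillomas remain, and ranged from 17 to 20 without 1 library; in cSCC against papilloma the one with miR-199a-5p was lost in 9 of these 10 fits and that with miR-205-5p in 8. The replicate block gave the same 7, 7, 7, 7, 1 and 0 members lower, with miR-133a-3p at -3.09 and -4.47 in papilloma and cSCC against healthy skin. It called 4 miRNAs of any kind higher in hyperplastic skin, 12.9% higher in papilloma (24% without it) and 16.8% in cSCC (26.2%). Against hyperplastic skin it called 5.18% lower and 4.47% higher in papilloma and 11.3% and 11.1% in cSCC. Over all miRNAs, the shares called lower and higher against healthy skin were 8.71% and 48.1% in papilloma and 17.1% and 36.1% in cSCC with total counts, and 20.5% and 29% in papilloma and 25.9% and 36.5% in cSCC at 50 CPM. Without the filter 8.44% were higher in papilloma. In cSCC against papilloma total counts gave 3.76% higher. The members too scarce to test had 0 to 15 reads a library, and the part of depth in this was not tested.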
